A study of Caenorhabditis elegans with 6 samples.

Results

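The fatty acid desaturases of *Caenorhabditis elegans* are the enzymes that put double bonds into fatty acids. They were taken as the rows with the WormBase symbols *fat-1* to *fat-7*, which are 7 of the 21507 genes listed, and all 7 passed the filter on low values that left 15169 genes for testing. The libraries came from whole bodies of untreated hermaphrodites at L4, the last larval stage. 3 libraries were of a glna knockout and 3 of wild type, strain N2. The genotype label does not say which glna genes, which encode glutaminases, were knocked out, and no promoter, transgene or pooling is described for either group.

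Worms make unsaturated fats in a fixed series of steps, and they need no unsaturated fat from their food. The delta-9 desaturases FAT-5, FAT-6 and FAT-7 put the single double bond into saturated fats, FAT-5 acting on palmitic acid and FAT-6 and FAT-7 on stearic acid to give oleic acid. FAT-2 then turns oleic acid into linoleic acid, FAT-1 turns omega-6 fats into omega-3 fats, and FAT-3 and FAT-4 add the double bonds of the long polyunsaturated fats. These enzymes work mainly in the intestine and epidermis, and their products are membrane lipids and the precursors of prostaglandin-like signals that guide sperm in the hermaphrodite.

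Totals of reads counted in genes ran from 18443661 to 19861540 in the knockout libraries and from 18764830 to 19736795 in the wild-type libraries. *glna-2* averaged 57.6 ± 17.6 normalized counts in the knockout and 458 ± 56.3 in wild type, *glna-3* averaged 125 ± 46.6 in the knockout and 689 ± 64.8 in wild type, and *glna-1* averaged 156 ± 29.7 in the knockout and 264 ± 7.88 in wild type (SD, n = 3 each). For each of these genes all knockout values lay under all wild-type values, with reads left. Knockout replicate 1 stood apart, with 3.58% of its reads on ribosomal RNA genes against 0.331% to 0.763% in the other 5 libraries. Nothing labels the replicates as separate cultures, and a p-value here speaks only of the variation among these libraries, some of which may be technical. In whole bodies, fewer cells of a type and less RNA per cell cannot be told apart.

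The 4 desaturases of polyunsaturated fats were each higher in all 3 knockout libraries than in any wild-type library, by 1.23-fold to 1.70-fold in the means. The 3 delta-9 desaturases had groups that overlapped. Over all genes tested, limma called 0 of the 7 at an adjusted p under 0.05, a threshold passed by 0.211% of genes with a higher and 0.145% with a lower level in the knockout. *fat-1* to *fat-4* had an unadjusted p under 0.05, which 10.9% of all genes reached with a higher and 11.8% with a lower level in the knockout. Groups that do not overlap, with the knockout higher, were seen in 15.3% of all genes. The authors' deposited table called 3 of the 7, *fat-2*, *fat-3* and *fat-4*, higher and 0 lower at an adjusted p under 0.05, beside 4.01% of the same 15169 genes called higher and 4.13% called lower there. DESeq2 on the recovered reads gave nearly the same values as that table, so it repeats those calls and adds no separate result. It called the same 3 higher (3.99% of its genes), or 2 without knockout replicate 1 (2.17%), when *fat-4* no longer passed (adjusted p = 0.0895). The quasi-likelihood test of edgeR called 0 (0.0264%).

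**Figure D1:**
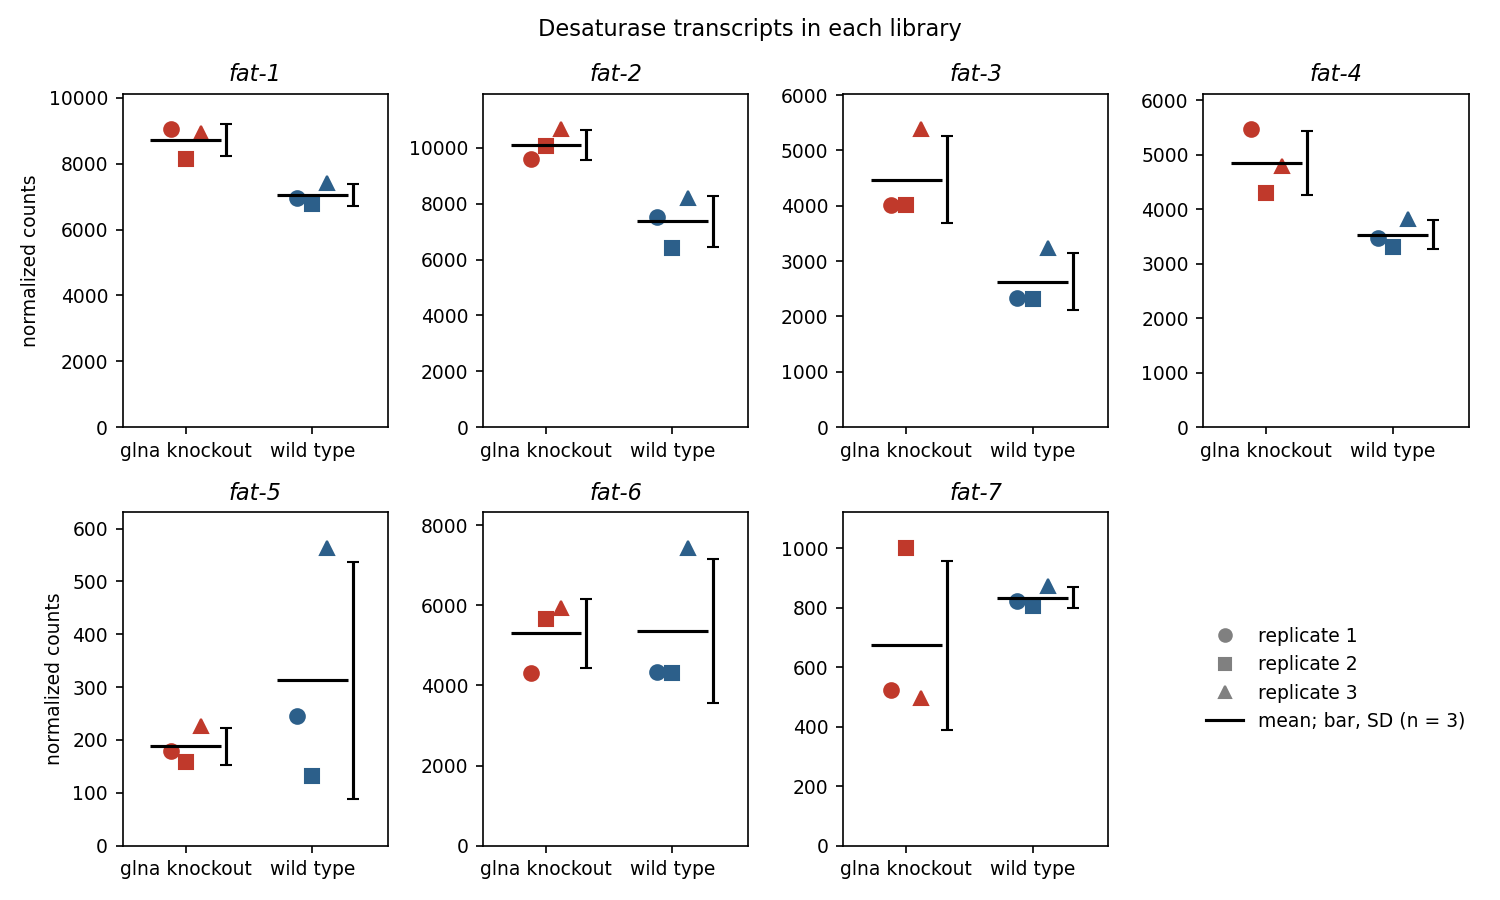
Normalized counts of the 7 desaturase genes (vertical axes, linear from 0) in the 3 glna knockout libraries (red, left) and the 3 wild-type libraries (blue, right). Marker shape gives the replicate number, horizontal lines the means and bars the SD (n = 3). For *fat-1* to *fat-4* every knockout point lies above every wild-type point, and for *fat-5* to *fat-7* the groups overlap.

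*fat-3* (W08D2.4, chromosome IV, 9803026 to 9806118, plus strand, WBcel235) encodes the enzyme that opens the branch to the longest polyunsaturated fats. It had 4011, 4022 and 5383 normalized counts in knockout replicates 1, 2 and 3, against 2340, 2320 and 3229 in wild type replicates 1, 2 and 3. Replicate 3 was the highest library in both genotypes, and the lowest knockout library still exceeded the highest wild-type library by 1.24-fold. The means were 4472 ± 789 in the knockout and 2629 ± 519 in wild type (SD, n = 3 each). In limma the log2 fold change was 0.77 (SE 0.18, 95% interval 0.37 to 1.17, adjusted p = 0.0783), which was larger than that of 95.5% of tested genes. The authors' deposited table has an adjusted p of 0.00520 for it.

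*fat-4* (T13F2.1, chromosome IV, 9799427 to 9802226, plus strand) encodes the enzyme that follows FAT-3, and the gene ends 799 bases before *fat-3* starts. It had 5468, 4290 and 4787 normalized counts in knockout replicates 1, 2 and 3, against 3466, 3302 and 3823 in wild type replicates 1, 2 and 3. The groups did not overlap, but the highest knockout library was replicate 1 here and replicate 3 for *fat-3*. The log2 fold change in limma was 0.45 (SE 0.13, 95% interval 0.16 to 0.75, adjusted p = 0.108), and in the authors' deposited table the adjusted p was 0.0388. Per kilobase of exon, the level of *fat-3* was 0.757, 0.968 and 1.16 times that of *fat-4* in knockout replicates 1, 2 and 3, and 0.697, 0.725 and 0.872 times in wild type replicates 1, 2 and 3. These ratios overlap between the genotypes.

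*fat-2* (W02A2.1, chromosome IV, 13323850 to 13326394, plus strand) makes linoleic acid, the entry to all polyunsaturated fats of the worm. Its values were 9597, 10058 and 10665 normalized counts in knockout replicates 1, 2 and 3, against 7514, 6402 and 8211 in wild type replicates 1, 2 and 3. The knockout libraries lay close together, with a coefficient of variation of 5.30%, against 12.4% in wild type, and the groups did not overlap. The log2 fold change in limma was 0.46 (SE 0.13, 95% interval 0.17 to 0.76, adjusted p = 0.108), and in the authors' deposited table the adjusted p was 0.0337.

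*fat-1* (Y67H2A.8, chromosome IV, 13315642 to 13318783, plus strand) lies 5066 bases before *fat-2* and encodes the omega-3 desaturase. It had 9043, 8147 and 8944 normalized counts in knockout replicates 1, 2 and 3, against 6971, 6780 and 7425 in wild type replicates 1, 2 and 3. The groups stood apart by the smallest margin of the polyunsaturated fat desaturases, 1.10-fold between the lowest knockout and the highest wild-type library. The limma log2 fold change was 0.30 (SE 0.11, 95% interval 0.05 to 0.55, adjusted p = 0.162), and the authors' deposited table did not call it (adjusted p = 0.112).

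The delta-9 desaturases had log2 fold changes on both sides of 0, none past the threshold. *fat-6* (VZK822L.1, chromosome IV, 11913690 to 11915687, minus strand), the most abundant of them, had 4309, 5647 and 5936 normalized counts in knockout replicates 1, 2 and 3, against 4329, 4303 and 7434 in wild type replicates 1, 2 and 3. Wild type replicate 3 was above every knockout library, and the other wild-type libraries lay close to the lowest one. The log2 fold change in limma was 0.02 (SE 0.23, adjusted p = 0.964), with a 95% interval of -0.51 to 0.55, which spans changes from 0.704-fold to 1.46-fold. Without wild type replicate 3 it was 0.28 (adjusted p = 0.446), and it was below 0 without any one of wild type replicates 1 and 2 and knockout replicates 2 and 3.

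*fat-7* (F10D2.9, chromosome V, 7151356 to 7153146, minus strand) encodes a close relative of FAT-6 that can stand in for it, so reads of the pair may not be cleanly divided. It had 524, 1002 and 498 normalized counts in knockout replicates 1, 2 and 3, against 824, 805 and 875 in wild type replicates 1, 2 and 3. Knockout replicates 1 and 3 lay below every wild-type library and knockout replicate 2 above them all. The coefficient of variation was 42.1% in the knockout and 4.30% in wild type. The log2 fold change in limma was -0.38 (SE 0.25, 95% interval -0.95 to 0.19, adjusted p = 0.382). Without knockout replicate 2 it was -0.71 and passed the threshold (adjusted p = 0.0488), in a fit that called 1.04% of all genes lower, so 1 library decides the call. The levels of *fat-6* and *fat-7* did not follow each other: per kilobase of exon *fat-6* was 7.94, 5.44 and 11.5 times *fat-7* in knockout replicates 1, 2 and 3, and 5.07, 5.16 and 8.21 times in wild type replicates 1, 2 and 3.

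*fat-5* (W06D12.3, chromosome V, 17723780 to 17726825, plus strand) was the least abundant, resting on 153 to 235 reads in the knockout libraries and 133 to 602 in the wild-type libraries. It had 179, 158 and 227 normalized counts in knockout replicates 1, 2 and 3, against 245, 131 and 564 in wild type replicates 1, 2 and 3. Wild type held both the lowest and the highest library, which were 4.30-fold apart. The log2 fold change in limma was -0.50 (SE 0.45, 95% interval -1.54 to 0.54, adjusted p = 0.532), and without wild type replicate 3 it was 0.05 (adjusted p = 0.945). The deposited row of *fat-5* overlaps *twk-42*, a potassium channel gene, and the noncoding gene W06D12.8, both on the minus strand. The overlap with *twk-42* covers only positions 17726800 to 17726825, and that with W06D12.8 only 17725789 to 17725842. The libraries are not stated to keep strand, so reads of these genes cannot be told apart within those positions. *twk-42* averaged 149 ± 26.8 normalized counts in the knockout and 158 ± 13.3 in wild type (SD, n = 3 each). W06D12.8 had at most 0.956 normalized counts in a knockout library and between 0.986 and 6.56 in the wild-type libraries, highest in replicate 3, and its mean was under the filter. Their part in the *fat-5* values was not tested.

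**Figure D2:**
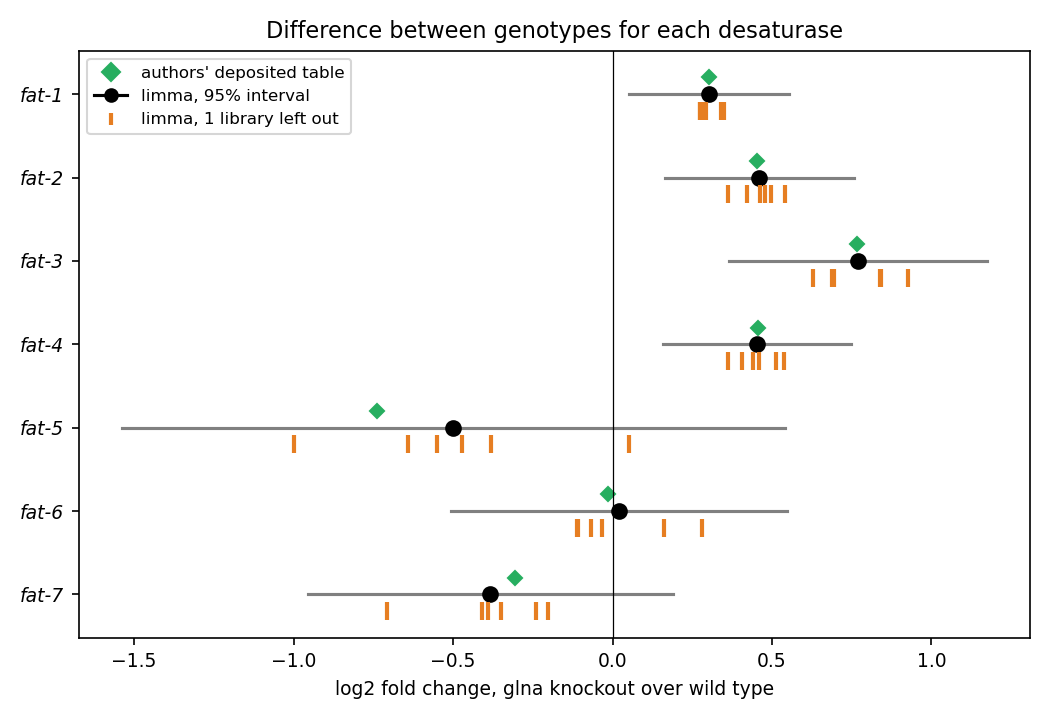
Log2 fold change of glna knockout over wild type for each desaturase (horizontal axis). Black points are limma with 95% intervals (grey lines), orange ticks limma with 1 library left out, green diamonds the authors' deposited table. All values of *fat-1* to *fat-4* lie above 0, while the intervals of *fat-5* to *fat-7* include 0.

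Wild type replicates had the same order for all 7 genes: replicate 3 was the highest, replicate 1 next and replicate 2 the lowest. This order was found in 1967 of the 15169 tested genes. The size of the step varied, since replicate 3 exceeded the mean of the other wild-type libraries by 2.997-fold for *fat-5*, 1.72-fold for *fat-6* and 1.39-fold for *fat-3*, but by 1.07-fold for *fat-7* and 1.08-fold for *fat-1*. The knockout libraries had no such common order. Knockout replicate 3 was the highest for *fat-2*, *fat-3*, *fat-5* and *fat-6*, replicate 1 for *fat-1* and *fat-4*, and replicate 2 for *fat-7*. Without knockout replicate 1, the library that stood apart, the log2 fold changes of *fat-1*, *fat-2*, *fat-3* and *fat-4* were 0.28, 0.50, 0.84 and 0.36, against 0.30, 0.46, 0.77 and 0.45 with it.

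Levels of different genes were compared as normalized counts per kilobase of exon in the Ensembl annotation. The plan had named the deposited gene lengths, and exon lengths replaced them after the data were seen. In the knockout the order was *fat-2* (8053 ± 427), *fat-1* (6152 ± 347), *fat-6* (4543 ± 744), *fat-4* (3148 ± 384), *fat-3* (2997 ± 529), *fat-7* (599 ± 252) and *fat-5* (170 ± 31.96; SD, n = 3). On this scale the order in wild type was the same, with *fat-2* at 5877 ± 727, *fat-1* at 4985 ± 234, *fat-6* at 4593 ± 1544, *fat-4* at 2292 ± 173, *fat-3* at 1762 ± 348, *fat-7* at 741 ± 31.9 and *fat-5* at 284 ± 203 (SD, n = 3). Among neighbours in the order, the ranges over libraries of *fat-4* and *fat-3* overlapped in the knockout. In wild type those of *fat-2* and *fat-1*, *fat-1* and *fat-6*, and *fat-4* and *fat-3* overlapped. Within each library, however, *fat-1* was 0.718 to 0.939 times *fat-2*. In each wild-type library *fat-3* was 0.697 to 0.872 times *fat-4*. The place of *fat-6* depends on the length used: the deposited table gives it 3488 bases, more than the 1998 bases the gene spans there, against 1166 bases of exon in the annotation. The deposited lengths of *fat-4* (1945 bases) and *fat-5* (2335 bases) also exceed their 1540 and 1104 bases of exon. Per kilobase of deposited length *fat-5* was at 80.4 in the knockout and 134 in wild type, still the lowest. With the deposited lengths *fat-6* came after both *fat-3* and *fat-4* in both genotypes, and *fat-3* came before *fat-4* in the knockout but after it in wild type.

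The delta-9 genes made up 17.6%, 23.4% and 21.0% of the summed per-kilobase level of the 7 genes in knockout replicates 1, 2 and 3, against 24.1%, 25.0% and 31.8% in wild type replicates 1, 2 and 3. The shares do not overlap, and the lowest wild-type share is close to the highest knockout share. They averaged 20.7% in the knockout and 26.9% in wild type, but 10.1% in the knockout and 14.2% in wild type with the deposited gene lengths. The sum of *fat-1* to *fat-4* was 20351 ± 1142 per kilobase in the knockout and 14916 ± 1432 in wild type. The sum of *fat-5* to *fat-7*, mostly *fat-6*, was 5313 ± 859 in the knockout and 5618 ± 1773 in wild type (SD, n = 3 each). Whether the 2 classes responded differently was not tested, since the classes were set with these values known.

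**Figure D3:**
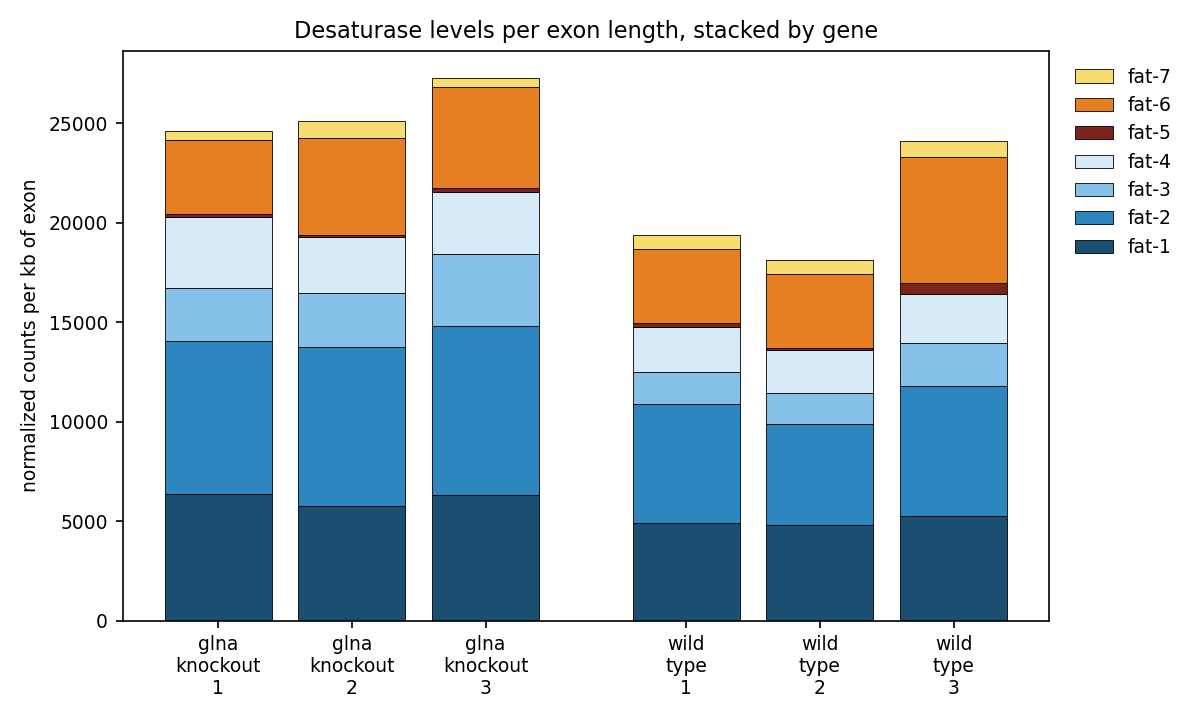
Normalized counts per kilobase of exon of the 7 desaturases, stacked by gene, in each glna knockout library (left) and each wild-type library (right). Blue parts are *fat-1* to *fat-4* and warm colours the delta-9 genes *fat-5* to *fat-7*. The blue stack is taller in every knockout library, and wild type replicate 3 has the largest *fat-6* part.

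Genes on either side of the desaturases in the pathway had differences in both directions. Of 17 genes of fatty acid synthesis and elongation, limma called 0. Before adjustment 4 had a p under 0.05 with a higher level in the knockout (*elo-2*, *pod-2* and, named after their values were seen, *let-767* and *hpo-8*) and 1 with a lower level (*elo-4*), and the authors' deposited table called *elo-2* higher and *elo-4* lower. The shares over all genes tested were 10.9% higher and 11.8% lower before adjustment, while the authors' deposited table called 4.01% higher and 4.13% lower. The median log2 fold change of the list was 0.28, against 0.01 over all genes tested and 0.46 over *fat-1* to *fat-4*. *elo-2*, which elongates palmitic acid, averaged 4560 ± 1376 normalized counts in the knockout and 2596 ± 281 in wild type (limma adjusted p = 0.117, and 0.0149 in the authors' deposited table). *elo-4*, another elongase gene, averaged 188 ± 26.0 in the knockout and 290 ± 27.6 in wild type (limma adjusted p = 0.0899, and 0.0301 in the authors' deposited table). *pod-2*, the acetyl-CoA carboxylase that commits carbon to fat synthesis, was the most abundant of the list at 16615 ± 5212 in the knockout and 10157 ± 1864 in wild type, with overlapping groups (limma adjusted p = 0.161; SD, n = 3 each).

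Desaturases take their electrons from cytochrome b5 and its reductase. Among 5 genes for these proteins and for sphingolipid desaturases, limma and the authors' deposited table called 0, while 2 higher and 1 lower gene had a p under 0.05 before adjustment (10.9% and 11.8% of all genes), and the median log2 fold change was -0.22. The cytochrome b5 gene *cytb-5.2* averaged 757 ± 142 normalized counts in the knockout and 1020 ± 89.7 in wild type (limma adjusted p = 0.163). *hpo-19*, a cytochrome b5 reductase gene, averaged 2706 ± 344 in the knockout and 2177 ± 128 in wild type (limma adjusted p = 0.199). F33D4.4 averaged 1507 ± 183 in the knockout and 1184 ± 94.8 in wild type (limma adjusted p = 0.172; SD, n = 3 each). Thus the groups of *cytb-5.2* lay apart in one direction and those of *hpo-19* and F33D4.4 in the other. Groups that lay apart with the knockout higher were seen in 15.3% of all genes, and the share with it lower was not computed.

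Of 10 genes known to regulate desaturase transcription, limma and the authors' deposited table again called 0. Under a p of 0.05 before adjustment there were 2 higher and 0 lower genes (10.9% and 11.8% of all genes). The median log2 fold change was 0.28. *nhr-49*, a nuclear receptor needed for normal expression of the delta-9 desaturases, averaged 1894 ± 193 normalized counts in the knockout and 1494 ± 114.8 in wild type (limma adjusted p = 0.163). *mdt-15*, a Mediator subunit that acts with it, averaged 4240 ± 994 in the knockout and 3293 ± 58.6 in wild type (limma adjusted p = 0.256). *daf-16*, the FOXO factor of insulin signalling, averaged 3633 ± 706 in the knockout and 2773 ± 291 in wild type (limma adjusted p = 0.212; SD, n = 3 each). The groups did not overlap for *nhr-49* and *mdt-15* and overlapped for *daf-16*. In the whole list, groups lay apart for 3 genes with the knockout higher and 1 with it lower. With the knockout higher, this was seen in 15.3% of all genes. The share with it lower was not computed. *sbp-1*, the worm SREBP factor, and *nhr-80*, named here after their values were seen, had log2 fold changes of 0.36 and -0.13 (limma adjusted p = 0.247 and 0.663).

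Downstream, 8 genes for the use of polyunsaturated fats, or for the reductase that serves such enzymes, had a median log2 fold change of -0.01, with 0 called by limma, 0 in the authors' deposited table and 0 under a p of 0.05 before adjustment. *cyp-13A12*, a cytochrome P450 that acts on these fats, averaged 230 ± 19.002 normalized counts in the knockout and 165 ± 70.7 in wild type (limma adjusted p = 0.286). *mboa-7*, which puts them into phosphatidylinositol, averaged 276 ± 18.2 in the knockout and 329 ± 45.5 in wild type (limma adjusted p = 0.347). *emb-8*, the reductase of the P450 enzymes, averaged 3022 ± 419 in the knockout and 2838 ± 143 in wild type (limma adjusted p = 0.725; SD, n = 3 each).

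**Figure D4:**
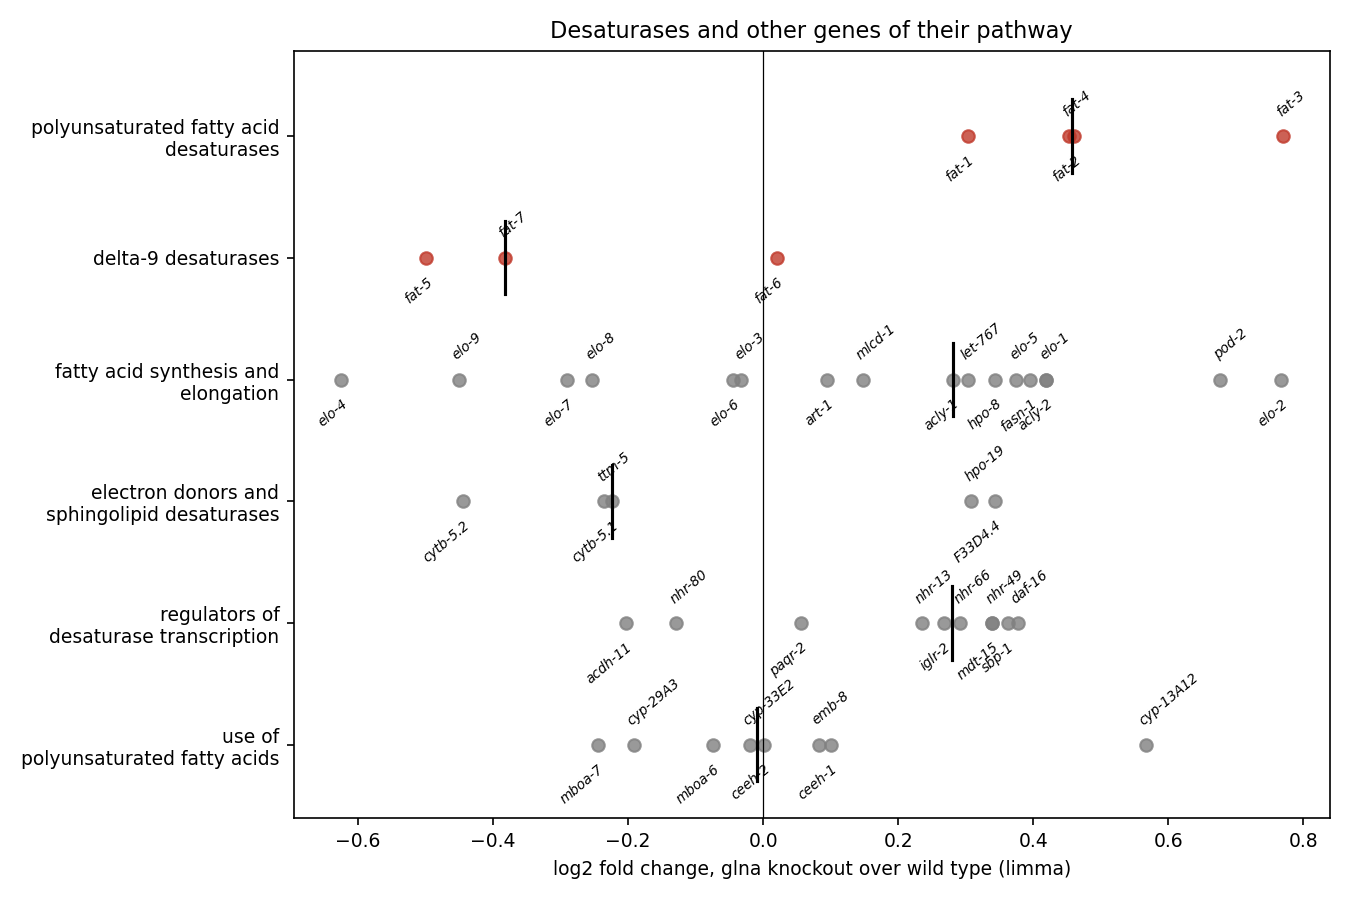
Log2 fold change of glna knockout over wild type in limma (horizontal axis) for the desaturases (red) and the other pathway lists (grey). Each point is 1 gene and black lines are list medians. *fat-1* to *fat-4* all lie to the right of 0, while the other lists spread over both sides of it.

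Markers of tissues were read beside the desaturases. Over all genes tested, 10.9% were higher and 11.8% lower in the knockout under a p of 0.05 in limma before adjustment. After adjustment limma called 0.211% higher and 0.145% lower, and the authors' deposited table called 4.01% higher and 4.13% lower. The 10 intestine markers, all detected, summed to between 157967 and 181998 normalized counts in the knockout libraries and between 144657 and 161187 in the wild-type libraries, with 0 called by limma or in the authors' deposited table, 0 under a p of 0.05 before adjustment and a median log2 fold change of 0.11. The 8 epidermis markers summed to between 8650 and 14853 in the knockout, and to 9363, 17842 and 18484 in wild type replicates 1, 2 and 3. limma called 0, and 1 (*elt-3*) was higher under a p of 0.05 before adjustment and in the authors' deposited table. Their median log2 fold change of -0.08 hides a spread from -0.95 (*rol-6*) to 0.48 (*elt-3*), with 3 of the 8 above 0. Marker sums of some other tissues stood further apart. Knockout replicate 1 had the highest sum of the 6 libraries for oocyte, pharynx and muscle markers, and also for the intestine markers. All 10 oocyte markers had a p under 0.05 before adjustment and a higher level in the knockout, with sums of 70091, 24793 and 26945 in knockout replicates 1, 2 and 3 and between 12880 and 22570 in wild type, although limma called 0 of them, and 3 were called in the authors' deposited table. The 6 pharynx markers summed to 40937, 25993 and 23579 in knockout replicates 1, 2 and 3 and between 18334 and 19841 in wild type. Most of each sum came from *myo-1* and *myo-2*. limma called *marg-1* higher (adjusted p = 0.0291), and the authors' deposited table called *marg-1*, *myo-1* and *myo-2* higher. Before adjustment 3 of the 6 were higher under a p of 0.05 in limma. Log2 fold changes were above 0 for 4 of the 6, and those of *pha-4* and *tnt-4* were both -0.01. The 8 sperm markers all had negative log2 fold changes, with 0 called by limma, 3 lower under a p of 0.05 before adjustment (*ssq-4*, *fer-1* and *spe-9*) and 2 called lower in the authors' deposited table (*ssq-4* and *fer-1*), and with sums between 17025 and 21759 in the knockout and between 21937 and 30528 in wild type. The 4 body wall muscle markers, of which 0 were called by limma, 0 in the authors' deposited table and 0 had a p under 0.05 before adjustment, summed to 348459, 223353 and 198215 in knockout replicates 1, 2 and 3 and between 181287 and 197177 in wild type. The part of any of these tissues, intestine and epidermis included, in the desaturase levels was not tested. Marker genes named here were singled out after their values were seen.

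The genes whose pattern was most like each desaturase were found by Pearson correlation of log2 values over the 6 libraries, among 12217 other named genes whose mean reached 50 normalized counts. The 6 libraries share the genotype difference and their normalization, so the coefficients are descriptions. For *fat-1* they were *clp-4* (0.998) and *ulp-5* (0.996), for *fat-2* *tag-180* (0.995) and F59B10.4 (0.993), for *fat-3* *prk-1* (0.999) and *nhr-90* (0.990), and for *fat-4* *faxc-2* (0.995) and C50D2.7 (0.995). For the delta-9 genes they were ZK1225.5 (0.958) and *swsn-3* (0.945) for *fat-5*, F26E4.2 (0.974) and *kgb-2* (0.964) for *fat-6*, and *obr-1* (0.992) and *mrps-18.C* (0.986) for *fat-7*. A coefficient of at least 0.9 was reached by 575, 276, 272 and 771 genes for *fat-1*, *fat-2*, *fat-3* and *fat-4*, and by 7, 37 and 139 genes for *fat-5*, *fat-6* and *fat-7*. The pattern of *fat-5*, with its high wild type replicate 3, was thus the one with the fewest like it.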

How the data were processed

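Per the labels' protocols, total RNA was isolated with TRIzol, libraries were prepared with an NEBNext Ultra kit, and no strand setting is stated. The submitters' processing notes list WBcel235 as the build, and DESeq2 1.20.0, featureCounts 1.5.0-p3, StringTie 1.3.3b, HISAT2 2.0.5 and CASAVA 1.8 as tools, without saying what each did. The signal columns deposited by the authors hold normalized counts: every value is a whole number of reads times a constant of its library. That constant was used to recover the reads (100% of values whole, tolerance 0.01 read). For wild type replicate 1 it is close to 1, yet the values are not rounded. The log2 fold changes and the p-values deposited by the authors compare knockout with wild type; 6267 of the adjusted values equal 1. The deposited group means were left out. No library was a copy of another of the same genotype, since the chi-square of recovered reads between replicates was 17.8 to 124 per degree of freedom.

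IDs were matched to symbols for 21056 genes through Ensembl 115 and RefSeq, and exon lengths are those of Ensembl 115. Values were transformed as log2(normalized count + 1), which understates changes of low genes, and genes averaging under 10 were dropped. limma 3.58.1 (R 4.3.3, with a mean-variance trend) compared the genotypes, and p-values were adjusted by Benjamini-Hochberg over all genes, with a threshold of 0.05. Alternatives included edgeR 4.0.16 and DESeq2 1.42.0 on recovered reads, and the tests were tried on simulated counts. Members, lists and tests were chosen with earlier results of these data known. The genes named are the desaturases, the glna genes, in each list the most abundant gene and the 2 with the smallest p, and the 2 genes most like each desaturase. The genes *let-767*, *hpo-8*, *sbp-1* and *nhr-80*, single marker genes and the genes that overlap *fat-5* were named after their values were seen. Samples were grouped by the labelled genotype. Figures used Python 3.11.15 and matplotlib 3.10.9.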

Additional observations from a re-analysis of the deposited data

How the results depend on the processing

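Fold changes and counts of calls were computed under 18 other settings, and the delta-9 share with quantile normalization and with other gene lengths. Of these, DESeq2 on the recovered reads and the authors' deposited table gave nearly the same values and are not separate. *fat-1* to *fat-4* stayed higher in the knockout under all 18. Since every knockout value of these genes exceeds every wild-type value, many settings could not have changed this direction. These were the fits with 1 library left out, another pseudocount or filter, a replicate block or sample weights. DESeq2 on the recovered reads and the authors' deposited table called *fat-2* (0.45 in both), *fat-3* (0.77 in both) and *fat-4* (0.46 in both), a count of 3 higher, and DESeq2 without knockout replicate 1 called *fat-2* (0.49) and *fat-3* (0.83), a count of 2. Whether the replicate numbers pair the samples cannot be decided from 3 libraries per group. Same-numbered deviations correlated at 0.20, -0.02 and 0.29, and those with unlike numbers between -0.37 and 0.13. With a replicate block limma called 1 member, *fat-3* (0.77, adjusted p = 0.0221), and 688 genes in all, against 54 without the block. The cause of these differences was not tested. The value of *fat-6*, near 0 in limma, was also below 0 with sample weights (-0.027), edgeR with TMM factors (-0.023) or median-of-ratios factors (-0.015), DESeq2 (-0.016) and the authors' deposited table (-0.016). With 1 library left out, log2 fold changes were between 0.27 and 0.35 for *fat-1*, 0.36 and 0.54 for *fat-2*, 0.63 and 0.93 for *fat-3*, 0.36 and 0.54 for *fat-4*, -0.998 and 0.050 for *fat-5*, -0.11 and 0.28 for *fat-6*, and -0.71 and -0.20 for *fat-7*. These fits called 0 members higher and between 0 and 1 lower. Over all 15169 genes tested they called only between 0 and 90 higher and between 0 and 157 lower. Among synthesis and elongation genes DESeq2 and the authors' deposited table each called 1 higher and 1 lower, where limma called 0. With the deposited gene lengths, the scale first planned, the delta-9 share averaged 10.1% in the knockout and 14.2% in wild type. With exon lengths, chosen after seeing the data, it averaged 20.7% in the knockout and 26.9% in wild type. *fat-5* had the fewest reads of the 7, 133 to 602 in a library.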
